A study of Mus musculus with 6 samples.

Results

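Core and linker histone genes were examined on 6 microarrays of sorted bone marrow cells from mice with leukemia. The members were the probe sets whose platform annotation holds a symbol starting with H1f, H2ac, H2bc, H3c, H4c, H2a, H2b, H3f or the older Hist1 to Hist4 names, without the H2- genes of the major histocompatibility complex. This gave 108 of the 25335 probe sets with a gene symbol, and they carry 100 histone symbols of 23981 gene symbols in all. Of the 108, 68 belong to 67 replication-dependent histone genes and 40 to 33 variant genes. Because the genes of a histone family are nearly identical in their coding sequence, 59 probe sets carry several symbols and were kept as measured, and 49 carry 1 symbol. The values of 5 probe sets are identical to those of another member, which leaves 103 different measurements. H1f0 and the macroH2A genes were not analysed here.

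Core histones H2A, H2B, H3 and H4 form the octamer around which DNA is wrapped, and linker histone H1 binds where DNA enters and leaves it. Replication-dependent histone genes lie in clusters, are transcribed mainly in S phase and give mRNAs that end in a conserved stem-loop in place of a poly(A) tail. Variant histones such as H2A.Z and H3.3 are encoded outside the clusters by polyadenylated mRNAs and are deposited outside replication as well. A further set of variants is known from the germline, where many are expressed in spermatogenic cells.

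The study compared mice with chronic myeloid leukemia (CML, 3 arrays) and mice with acute myeloid leukemia (AML, 3 arrays), with no array of healthy mice used here. All 6 samples are primary sorted marrow cells of the genotype Col2.3 GFP, a reporter that expresses green fluorescent protein in bone-forming cells from a Col1a1 promoter fragment. The titles call the cells stromal and the labels osteoblastic, and how the leukemias were induced and the strain and age of the mice are not given in the sources used here. Titles and design give 3 arrays per leukemia while the source names give CML for all 6, so every direction here rests on the titles. No label states that each sample is a mouse of its own, so the p-values reflect sample spread that may be only technical.

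Some markers of blood cells passed the test between the groups, and those of the labelled cells differed by value only. All 8 measured osteoblast and bone matrix genes were lower in AML by value, with 0 past the threshold, a median log2 change of -1.15 and a summed intensity of 2630 to 12310 on the CML arrays and 1264 to 4656 on the AML arrays. None of the 8 was listed at 0, and their lowest log2 intensity was 3.31, against array medians of 4.39 to 4.64. All 15 pan-haematopoietic genes were higher in AML by value and 3 of them (Ptpn6, Vav1 and Spi1) rose, with a summed intensity of 1940 to 5626 in CML and 6571 to 10660 in AML. Of 8 primary granule and myeloid progenitor genes, known from neutrophil precursors, 6 rose, Elane, Fcnb, Mpo and Prtn3 among them. The summed intensity of the 8 was 770.3 to 1204 in CML and 5067 to 11746 in AML. Col1a1, the bone collagen gene whose promoter drives the reporter, lay at 8.71 to 11.95 on the CML arrays and at 7.26 to 9.87 on the AML arrays, and Ptprc, the leukocyte marker CD45, at 4.96 to 8.27 and at 8.17 to 9.30, with overlapping groups for both. Of 6 erythroid genes all were lower by value (median -1.88) and of 5 endothelial genes 4 were (median -0.27), with 0 past the threshold. Fewer cells of a type and less RNA per cell cannot be told apart in these bulk samples, and the part of other cell types in the histone values was not tested.

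Replication-dependent and variant histones showed few changes that passed the test between AML and CML. In limma, 2 of the 108 histone probe sets passed a Benjamini-Hochberg adjusted p of 0.05, both replication-dependent and both higher in AML, beside 529 of all 25335 probe sets (2.09%), of which 505 (1.99%) were higher and 24 (0.0947%) lower. These 2 were 1 of 8 probe sets shared by the same H3 genes and 1 of 4 shared by the same H4 genes. At an unadjusted p under 0.05, 14 histone probe sets were higher and 7 lower, beside 12.6% and 9.17% of all. The share of histone probe sets that passed was therefore near that of the array as a whole.

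By value the classes differed in their shares, without a test of that difference. Of the 68 replication-dependent probe sets 46 were higher in AML (67.6%), with a median log2 change of 0.17. The count was 36 of 68 without CML 1 and 37 of 68 without AML 3. With 1 probe set per gene it was 16 of 29, with a median of 0.03. That setting leaves out the 38 probe sets with several symbols, all 12 of H3 among them. Of the 40 variant probe sets 16 were higher (40.0%), with a median of -0.06. That median turned to 0.09 with 23 of 40 higher after median centring and to 0.01 with 21 of 40 without AML 1. The variant share joins 11 of 13 somatic probe sets (84.6%) and 5 of 27 germline ones (18.5%), so it describes neither part. The somatic share was above that of the replication-dependent probe sets and the germline share below it. Among all probe sets 38.5% were higher, with a median of -0.11. Level moves with these shares: among the 12835 probe sets at or above the median level of the array, 59.4% were higher, with a median of 0.16. Of the 9753 probe sets higher in AML, 7623 were at or above that level, so the share below it was well under 38.5%. In the 39 replication-dependent probe sets at or above it 29 were higher (74.4%) and the median was 0.29. In the 29 dimmer ones 17 were higher (58.6%) and the median was 0.07. That order depends on the scaling: the medians were 0.20 and 0.19 after quantile normalization, and 0.06 (22 of 39 higher) and 0.26 (23 of 29 higher) after cyclic loess. The median level of the 68 on the CML arrays 1, 2 and 3 was 5.31, 5.47 and 5.43, and on the AML arrays 1, 2 and 3 it was 5.42, 6.0 and 5.83, so AML 1 lay within the CML range and AML 2 and 3 above it.

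**Figure D1:**
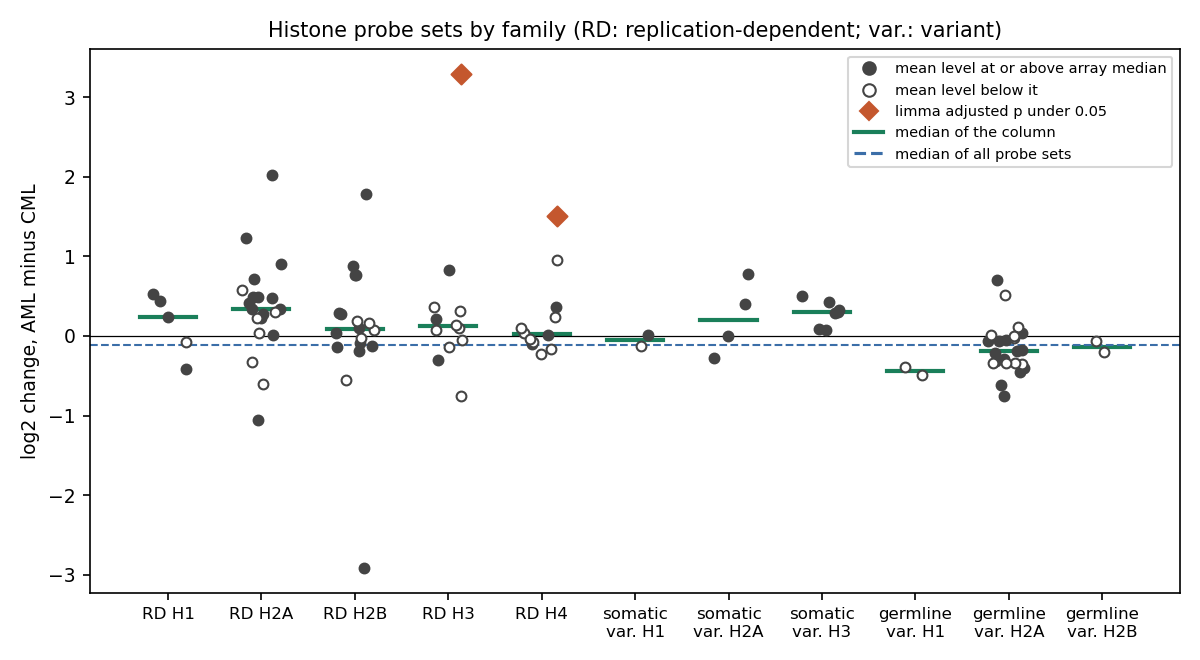
Log2 change between the AML and CML means (vertical axis) of each histone probe set, by class and family; the probe set shared by H1f4 and H2B genes is left out. Each point is a probe set, open below the median level of the array, green bars are column medians and the dashed line is the median of all probe sets. Diamonds passed the test: the 2 that passed, at 3.29 among H3 and 1.5 among H4, lie above the others of their families.

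Promoters of 6 genes that the results name are printed, 4 replication-dependent and 2 of variants, to show which letters the classes share and where they differ. They are the 250 bases before the transcription start in RefSeq (build GRCm38.p6), 5′ to 3′ on the gene's strand, with matches to TATAAA, to CCAAT and to the octamer ATTTGCAT, searched on both strands, in capitals. H2ac21 lies at chr3:96219635-96219884 on the plus strand, H2bc12 at chr13:22035571-22035820 on the plus strand, H4c12 at chr13:21750554-21750803 on the minus strand, H1f5 at chr13:21780626-21780875 on the minus strand, and the variants H2az2 at chr11:6444444-6444693 and H3f3b at chr11:116024505-116024754 on the minus strand.
H2ac21: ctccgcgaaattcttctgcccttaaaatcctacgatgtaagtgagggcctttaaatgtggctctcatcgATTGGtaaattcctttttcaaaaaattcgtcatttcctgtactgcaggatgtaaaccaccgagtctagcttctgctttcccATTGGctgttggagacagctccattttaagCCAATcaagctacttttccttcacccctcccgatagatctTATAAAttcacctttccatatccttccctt
H2bc12: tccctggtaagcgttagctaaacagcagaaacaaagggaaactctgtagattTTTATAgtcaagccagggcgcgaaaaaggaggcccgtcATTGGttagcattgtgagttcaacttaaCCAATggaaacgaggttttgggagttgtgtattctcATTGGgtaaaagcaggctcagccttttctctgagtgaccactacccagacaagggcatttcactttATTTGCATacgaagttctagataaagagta
H4c12: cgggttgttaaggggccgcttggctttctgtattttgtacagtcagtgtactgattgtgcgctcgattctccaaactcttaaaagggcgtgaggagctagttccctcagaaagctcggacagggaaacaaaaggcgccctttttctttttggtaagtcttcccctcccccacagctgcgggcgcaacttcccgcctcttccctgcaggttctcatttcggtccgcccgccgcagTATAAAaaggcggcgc
H1f5: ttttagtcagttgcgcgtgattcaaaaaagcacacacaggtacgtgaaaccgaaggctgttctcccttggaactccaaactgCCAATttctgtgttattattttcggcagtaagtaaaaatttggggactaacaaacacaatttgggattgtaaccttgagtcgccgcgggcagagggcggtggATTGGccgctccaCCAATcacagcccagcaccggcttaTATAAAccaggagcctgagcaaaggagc
H2az2: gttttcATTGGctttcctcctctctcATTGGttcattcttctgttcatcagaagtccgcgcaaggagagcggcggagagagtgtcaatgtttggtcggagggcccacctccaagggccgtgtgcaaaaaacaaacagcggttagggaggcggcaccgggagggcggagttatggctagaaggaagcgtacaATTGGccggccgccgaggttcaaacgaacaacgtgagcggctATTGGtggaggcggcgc
H3f3b: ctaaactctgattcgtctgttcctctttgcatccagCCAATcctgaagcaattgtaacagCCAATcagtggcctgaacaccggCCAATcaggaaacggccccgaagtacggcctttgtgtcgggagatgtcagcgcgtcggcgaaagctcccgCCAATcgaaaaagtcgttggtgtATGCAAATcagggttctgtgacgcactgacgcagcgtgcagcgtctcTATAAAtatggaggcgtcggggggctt

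The first 4 genes are replication-dependent. TATAAA begins 30 bases before the start in H2ac21, 28 before it in H1f5 and 16 before it in H4c12, and the octamer, a binding site of POU factors known from H2B promoters, begins 30 bases before the start in H2bc12. H2az2 holds 4 CCAAT matches, all on the opposite strand, and neither TATAAA nor the octamer. H3f3b, also a variant, holds all 3 motifs, with TATAAA 27 bases before the start, 4 CCAAT matches and the octamer on the opposite strand. Of the 102 histone symbols on the probe sets, counting H4f16 and H4bc24, 94 matched a RefSeq promoter. Of 62 replication-dependent promoters 46.8% held TATAAA, 82.3% CCAAT and 21% the octamer, beside 13%, 34.5% and 1.61% of all 27025 promoters. The octamer was in 38.9% of the 18 H2A and 37.5% of the 16 H2B promoters and in 0 of those of replication-dependent H1, H3 and H4. CCAAT was in every replication-dependent H1, H2A and H2B promoter and in 3 of 12 of H4 (25%), below the share of all promoters. Many H2A and H2B genes are transcribed away from each other from 1 shared region, so these windows are not independent. Of 7 promoters of somatic variants 14.3% held TATAAA, 71.4% CCAAT and 14.3% the octamer, and of 25 promoters of germline variants 8%, 24% and 0%. A match describes these letters and shows no binding.

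Histone H3 gave the largest change. Among 12 replication-dependent H3 probe sets, 8 carry the same 8 symbols (H3c2, H3c3, H3c4, H3c6, H3c7, H3c13, H3c14 and H3c15), which encode the core histone H3 of clusters 1 and 2. In 1 of these 8, probe set 17291183, the CML arrays 1, 2 and 3 gave log2 intensities of 3.46, 5.29 and 3.11 and the AML arrays 1, 2 and 3 gave 7.36, 7.31 and 7.07. The groups did not overlap, and CML 2 was the highest CML array. CML 1 and 3 lay below their array medians of 4.55 and 4.64, so the probe set was dim there, and with no detection call used the size of the fold rests on values not shown to be above background. The means were 3.96 ± 1.17 in CML and 7.24 ± 0.15 in AML (SD, n = 3 each), a 9.78-fold rise with a log2 change of 3.29 ± 0.54 (SE; limma adjusted p = 0.0415).

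The other 7 probe sets with the same symbols changed by -0.75 to 0.83 on the log2 scale, and none passed. The brightest of them, probe set 17400555, was at 8.17, 8.09 and 8.01 in CML and at 8.11, 8.32 and 8.48 in AML, a change of 0.22 (limma adjusted p = 0.402), with overlapping groups. The lowest, probe set 17400559, changed by -0.75 (limma adjusted p = 0.265). The 4 probe sets shared by H3c1, H3c8, H3c10 and H3c11 changed by -0.31 to 0.36 and none passed. Which of these near-identical genes a probe set reads is uncertain, so the rise belongs to that probe set and not to a named H3 gene. Its call, at probe set 17291183 with H3c13 as its first symbol, ended after quantile normalization (3.2, limma adjusted p = 0.0740) and after cyclic loess (3.21, 0.0656), and with 1 array left out it passed only without CML 2 (3.96, 0.0141), with limma adjusted p up to 0.170 in the other 5 fits.

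**Figure D2:**
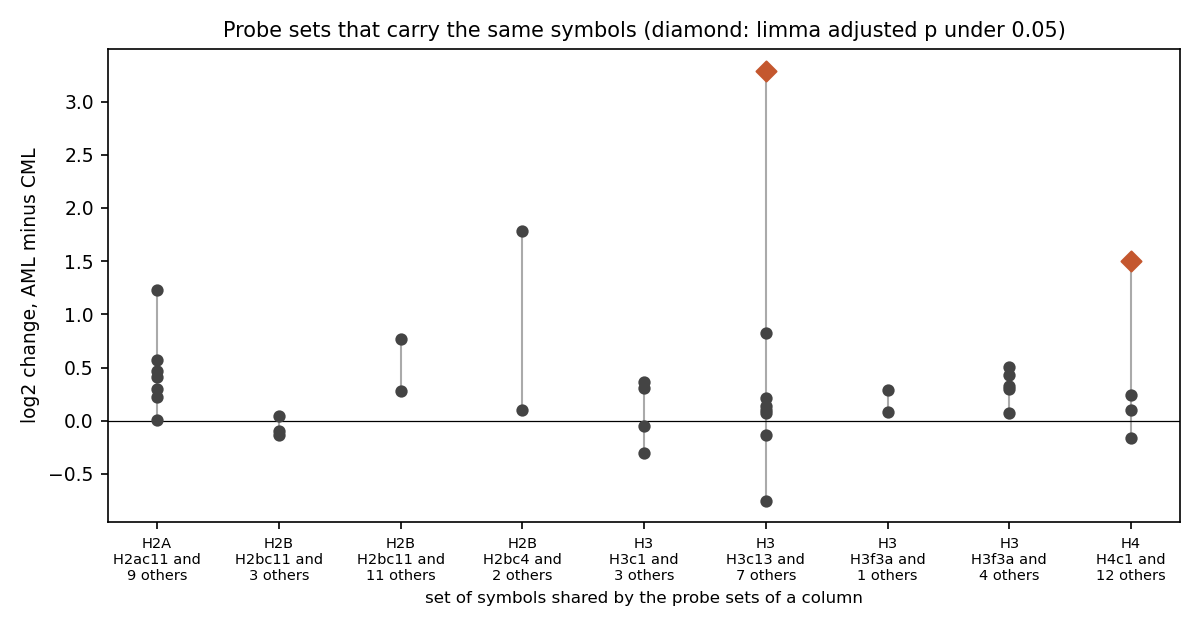
Log2 change between the AML and CML means of probe sets that carry an identical set of histone symbols, 1 column per symbol set, germline variants left out; diamonds passed the test. In the set of 8 H3 genes 1 point lies at 3.29 and the other 7 between -0.75 and 0.83, and in the set of 13 H4 genes 1 lies at 1.5 and the other 3 between -0.16 and 0.24.

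Histone H4 showed a rise at a dim probe set. H4 is encoded by many genes for a single protein, and 4 of the 12 H4 probe sets carry the same 13 symbols, H4f16 among them. Probe set 17285846 was at 2.42, 2.59 and 2.85 on the CML arrays and at 4.34, 4.08 and 3.93 on the AML arrays, so the groups did not overlap. The means were 2.62 ± 0.22 and 4.12 ± 0.20 (SD, n = 3 each), a 2.83-fold rise and a log2 change of 1.5 ± 0.18 (SE; limma adjusted p = 0.0219). All 6 values lay below the median of their array. The call held under 3 other scalings and ended without AML 1 (limma adjusted p = 0.100) and without AML 2 (0.109), where 0 of all 25335 probe sets passed, with 3514 and 4264 of them at an unadjusted p under 0.05.

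The other 3 probe sets of these 13 symbols changed by -0.16 to 0.24. H4c12, the brightest H4 probe set, was at 10.77, 10.88 and 11.15 in CML and at 10.67, 10.87 and 10.94 in AML, with overlapping groups and a change of -0.10 (limma adjusted p = 0.693). H4c8 was at 2.62, 2.76 and 2.35 against 3.2, 3.11 and 4.28, without overlap, a change of 0.96 that did not pass (limma adjusted p = 0.178). H4c2 stood at -0.23 and 9 of the 12 H4 probe sets were below the median level of the array. The family's median change was 0.02.

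Histone H2A was mostly higher in AML by value, with 0 of 20 replication-dependent probe sets past the threshold. By value 17 of the 20 were higher, with a median log2 change of 0.34, which was 0.22 after quantile normalization and 0.18 after cyclic loess. In 8 of them (40.0%) every AML array lay above every CML array, and in 0 the reverse, beside 13.4% and 18.0% of all probe sets and 23.9% and 9.75% of those at or above the median level. Some of these 20 read the same genes, and 2 repeat the values of another, so they are not independent.

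H2ac21, an H2A gene of cluster 2, had the lowest p of the family. It was at 6.03, 7.45 and 5.54 on the CML arrays and at 8.08, 8.36 and 8.65 on the AML arrays, with no overlap. The change of 2.02 ± 0.48, or 4.07-fold, missed the threshold (SE; limma adjusted p = 0.0921), and it passed without CML 2 (2.58, limma adjusted p = 0.0292). A second H2ac21 probe set was at 5.06, 5.40 and 5.32 against 5.45, 5.52 and 5.50, again without overlap but with a change of only 0.23 (limma adjusted p = 0.365). H2ac20, another H2A gene of the cluster, changed by 0.90 (limma adjusted p = 0.249), with overlapping groups.

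The brightest H2A probe set, shared by H2ac18, H2ac19 and H2ac20, was at 10.48, 10.83 and 10.60 in CML and at 10.99, 11.01 and 10.93 in AML. Every AML array lay above the CML arrays, by 0.34 in the mean (limma adjusted p = 0.238). A probe set shared by 12 H2A genes of cluster 1 was at 9.60, 9.84 and 9.63 against 10.004, 10.19 and 10.36, also without overlap, with a change of 0.49 (limma adjusted p = 0.155). The 7 probe sets shared by 10 H2A genes were all higher by value, from 0.007 to 1.23. The one at 1.23, read with H2ac11 as its first symbol, overlapped between groups, at 5.58, 5.92 and 4.28 against 5.16, 6.94 and 7.37 (limma adjusted p = 0.308).

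H2aw, an H2A gene of cluster 3, was the exception among bright H2A probe sets. It was at 5.57, 7.27 and 6.82 in CML and at 5.63, 5.14 and 5.72 in AML, where CML 1 lay among the AML arrays. The change was -1.06 ± 0.44 and missed the threshold (SE; limma adjusted p = 0.226), and without CML 1 it passed (-1.55, limma adjusted p = 0.0467).

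Histone H2B was divided. Of 18 probe sets 11 were higher in AML by value and 7 lower, 0 passed, and the median log2 change was 0.09 (-0.02 after cyclic loess). A probe set shared by 12 H2B genes had the lowest p, at 6.98, 7.38 and 6.64 in CML and 7.72, 7.77 and 7.82 in AML. The groups did not overlap, and the change of 0.77 did not pass (limma adjusted p = 0.117). The brighter probe set of the same 12 symbols changed by 0.28.

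H2bc4, H2bc6 and H2bc8 share 2 probe sets that differ. The first was at 8.53, 8.16 and 6.44 in CML and at 9.23, 9.79 and 9.46 in AML, without overlap, a change of 1.78 ± 0.53 (SE; limma adjusted p = 0.139). The second overlapped, at 5.86, 8.81 and 6.90 against 8.03, 6.32 and 7.52, a change of 0.10. H2bc13 and its 3 companion symbols, the brightest H2B probe set, changed by 0.04 (limma adjusted p = 0.881). H2bc12, with the octamer in its printed promoter, was at 8.03, 7.79 and 7.31 against 7.37, 8.34 and 8.30, a change of 0.29 with overlap (limma adjusted p = 0.577). Among the other single genes, H2bc9, above the median level of the array, changed by 0.88 and H2bc14, below it, by -0.56. Both were without overlap and did not pass (limma adjusted p = 0.207 and 0.200).

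The largest negative value of all 108 was that of H2bu2, an H2B gene of cluster 3 whose probe set also carries the pseudogene H2bu1-ps. It was at 7.96, 7.27 and 6.30 on the CML arrays and at 2.17, 3.98 and 6.64 on the AML arrays. AML 3 lay above CML 3, so the groups overlapped, and the change of -2.92 ± 1.08 missed the threshold (SE; limma adjusted p = 0.197). With 1 array left out it ran from -4.10 to -1.87. The mean log2 level of 6 erythroid genes was 7.77, 9.60 and 9.08 in CML and 5.13, 6.89 and 8.72 in AML. Among the AML arrays both were lowest on AML 1 and highest on AML 3, and among the CML arrays the orders differed, with CML 1 the highest for H2bu2 and the lowest for the erythroid genes. Their part in the H2bu2 values was not tested.

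Linker histones of the cluster showed no change that passed. H1f5, the brightest of the 5 H1 probe sets, was at 10.21, 11.22 and 11.06 in CML and at 11.08, 11.20 and 11.53 in AML. The groups overlapped, with a change of 0.44 (limma adjusted p = 0.380). H1f2 and H1f3 changed by 0.53 and 0.24 (limma adjusted p = 0.399 and 0.485), and H1f1 by -0.42 (0.465), with AML 1 at 5.95 below the other 5 arrays at 6.85 to 7.37. The probe set shared by H1f4 and 3 H2B genes changed by -0.21 (limma adjusted p = 0.512). The testis members of cluster 1, H1f6, H2ac1 and H2bc1, were below the median level of the array, with changes of -0.07, -0.61 and -0.02.

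**Figure D3:**
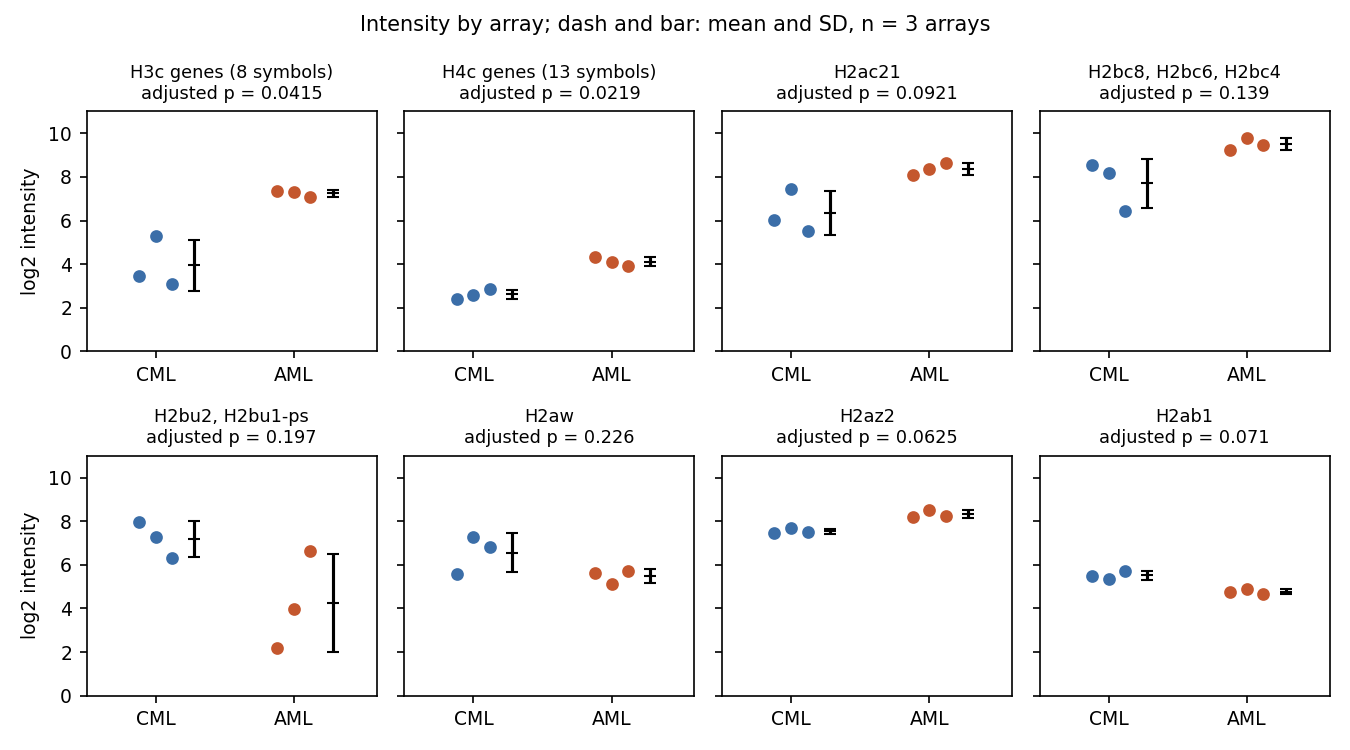
Log2 intensity on each of the 6 arrays (points) with the mean and SD of each group of 3, for 8 histone probe sets described in the text with their limma adjusted p. The H3 probe set that passed lies between 3.11 and 5.29 in CML and between 7.07 and 7.36 in AML, while AML 3 of H2bu2, at 6.64, lies within its CML range of 6.30 to 7.96.

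Variant histones of somatic cells were mostly higher in AML by value, and 0 of 13 probe sets passed. By value 11 of the 13 were higher, with a median log2 change of 0.29. This median was 0.44 after median centring, 0.14 after quantile normalization and 0.05 after cyclic loess. With 1 probe set per gene, where shared probe sets are left out, 4 of 5 were higher and the median was 0.01. Of the 13, 7 read the H3.3 genes, so the 13 are not independent. In 5 every AML array lay above every CML array and in 1 the reverse, beside 13.4% and 18.0% of all probe sets. Of the 13, 12 were at or above the median level of the array, where these shares were 23.9% and 9.75%. Of the 5, 4 are H3.3 probe sets. The median level of the 13 was 7.85, 8.06 and 7.69 in CML and 8.31, 8.41 and 8.23 in AML.

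H2az2, which encodes an H2A.Z protein found at promoters, had the lowest p among the variants. It was at 7.46, 7.67 and 7.496 in CML and at 8.19, 8.53 and 8.23 in AML, without overlap. The change of 0.78 ± 0.16, or 1.71-fold, missed the threshold (SE; limma adjusted p = 0.0625). It passed after median centring (0.93, limma adjusted p = 0.0332), and after cyclic loess it was 0.42 (0.328). H2az1, which encodes the other H2A.Z protein, was at 5.69, 5.98 and 5.78 against 5.67, 5.44 and 5.49. Here every AML array lay below the CML arrays, by a change of -0.28 that did not pass (limma adjusted p = 0.300). The difference between H2az2 and H2az1 was not tested.

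H3.3, encoded by H3f3a and H3f3b and placed at active genes outside replication, was read by 7 probe sets, all higher in AML by value as deposited and 6 of 7 after quantile normalization or cyclic loess. Their changes ran from 0.07 to 0.50 with a median of 0.30, and 0 passed. The probe set with the lowest p was at 9.61, 9.65 and 9.26 in CML and at 10.09, 9.82 and 10.11 in AML, without overlap (0.50, limma adjusted p = 0.173). It carries both genes and 3 related symbols, so the H3.3 genes cannot be told apart there. The 2 probe sets that carry H3f3a and 1 predicted gene changed by 0.29 and 0.08.

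H2ax, the variant phosphorylated at DNA breaks, was at 10.01, 10.74 and 10.18 against 10.34, 10.88 and 10.90, with overlap and a change of 0.40 ± 0.25 (SE; limma adjusted p = 0.365). H2aj was at 6.59, 7.06 and 6.23 against 6.59, 6.23 and 7.08, and the groups covered the same range. The linker variant H1f10 changed by 0.01 and -0.13 at its 2 probe sets.

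Germline variants were mostly lower in AML by value. Of 27 probe sets 5 were higher and 22 lower, 0 passed, and the median log2 change was -0.21, against -0.11 for all probe sets. After quantile normalization these medians were -0.21 and -0.03, and after cyclic loess -0.19 and -0.008. Without AML 1 the germline median was -0.10, with 10 of 27 higher. In 8 of the 27 (29.6%) every AML array lay below every CML array, beside 18.0% of all, and in 0 the reverse. Their median level was 4.69 to 5.20 on the CML arrays and 4.67 to 4.97 on the AML arrays, close to the array medians. The H2al1 family, with 14 probe sets that largely share symbols, had a median of -0.12.

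H2ab1, which encodes a short H2A variant known from testis, had the lowest p of the germline variants. It was at 5.48, 5.35 and 5.73 in CML and at 4.77, 4.88 and 4.66 in AML. The groups did not overlap, and the change of -0.75 ± 0.16 missed the threshold (SE; limma adjusted p = 0.0710). The other 2 H2ab1 probe sets changed by no more than 0.04. H2ab2, H2al2a and the oocyte linker H1f8 changed by -0.41, -0.45 and -0.39, each without overlap and without passing (limma adjusted p = 0.209, 0.169 and 0.215).

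Genes that serve histone supply gave 0 calls past the threshold. Of 13 measured genes of histone mRNA transcription and processing 11 were higher in AML, 0 passed, and the median was 0.36 (0.16 after quantile normalization and 0.077 after cyclic loess). Cpsf3, the nuclease that cuts histone and other pre-mRNAs, was at 6.63, 6.69 and 6.01 in CML and at 7.58, 7.69 and 7.44 in AML. The groups did not overlap and the change of 1.13 did not pass (limma adjusted p = 0.0568). Hinfp, a transcription factor of H4 genes, changed by 0.67 and Npat, the coactivator of the clusters, by 0.60 (limma adjusted p = 0.188 and 0.297). Slbp, which binds the stem-loop of histone mRNAs, changed by 0.05 (limma adjusted p = 0.884). Of 18 histone chaperone and exchange genes 14 were higher, 0 passed and the median was 0.30, which was 0.076 with 11 of 18 higher after quantile normalization and turned to -0.040 with 8 of 18 higher after cyclic loess. Atrx, a chaperone partner for H3.3, changed by 0.76 (limma adjusted p = 0.146), Nap1l4, an H2A-H2B chaperone, by 0.32 (0.251) and Cabin1, a subunit of an H3.3 chaperone complex, by -0.84 (0.338).

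Cell cycle genes showed no change that passed. Of 18 genes of S phase and DNA replication 16 were higher in AML by value, from -0.22 to 0.66, 0 passed and the median was 0.32 (0.04 after cyclic loess). Gins2 and Mcm4, of the replicative helicase, changed by 0.66 and 0.50 (limma adjusted p = 0.241 and 0.242). Pcna, the replication clamp, changed by 0.13 (limma adjusted p = 0.633). Of 14 mitotic genes 10 were higher and 0 passed, with a median of 0.23, which turned to -0.005 after quantile normalization and -0.13 after cyclic loess, and to -0.05 without AML 3. Cdk1, the mitotic kinase, changed by 0.64 and Bub1, a spindle checkpoint kinase, by 0.61 (limma adjusted p = 0.229 and 0.236), and Mki67, a proliferation marker, by -0.56 (0.265). Whether more cells were in S phase in either group was not tested.

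**Figure D4:**
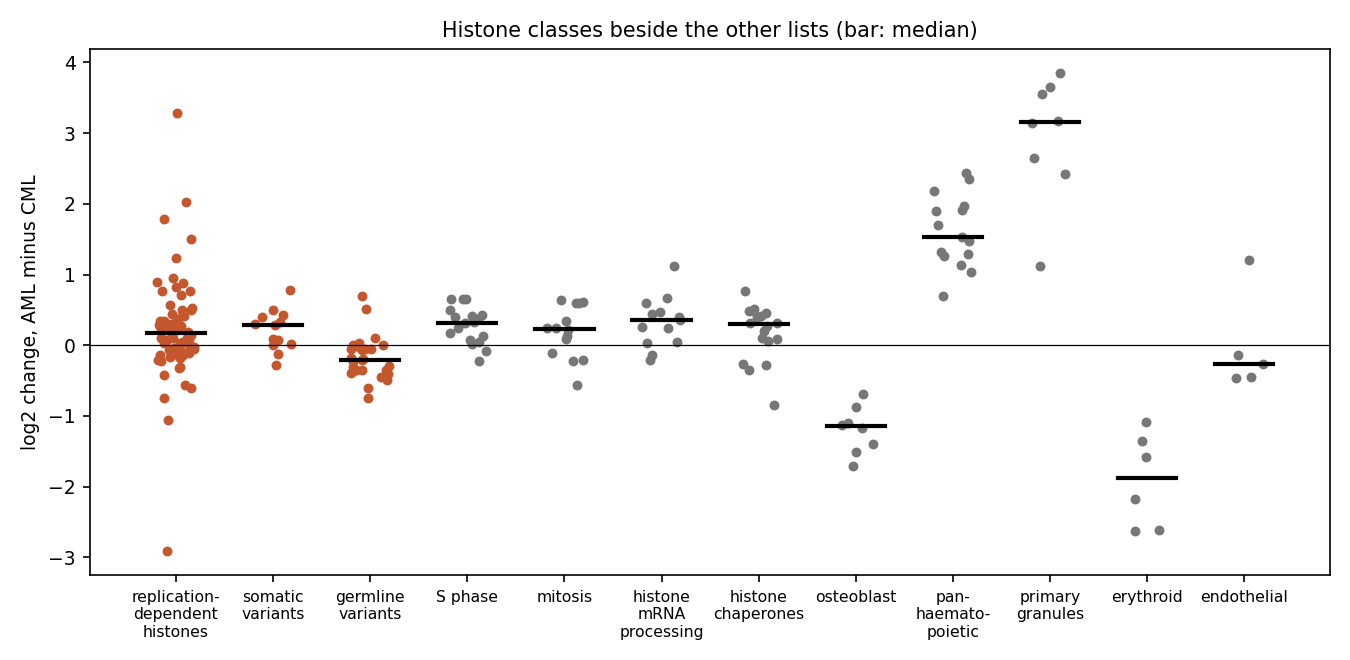
Log2 change between the AML and CML means (points), with the median of each column. Points are all probe sets of each histone class, those with shared symbols or identical values included. In the lists for histone supply, the cell cycle and cell types each point is 1 probe set per gene. The medians of the histone classes lie between -0.21 and 0.29, while those of the pan-haematopoietic and primary granule lists lie at 1.53 and 3.15 and that of the osteoblast list at -1.15.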

How the data were processed

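Sorted marrow cells gave RNA for 1 Affymetrix GeneChip array each, per the labels. The deposited table holds linear intensity values, as judged from the values, made by the authors with limma and lumi per the submitters' processing notes; the sources used here do not give background correction, summarisation or normalization. No detection call was used, and the number of arrays limits the precision.

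Groups of 3 CML and 3 AML arrays follow the titles. Of 39721 probe sets the 25335 with a gene symbol were tested; for the annotation's build the sources used here give nothing. The deposited intensity was floored at 1, put on the log2 scale and tested with limma 3.58.1 in R 4.3.3 (lmFit and eBayes, no filter or covariate, 4 residual degrees of freedom), with changes as AML minus CML, two-sided tests and a Benjamini-Hochberg adjusted p of 0.05 over all 25335. Older symbols in RefSeq (GRCm38.p6) set the class: genes once named Hist1 to Hist4 are replication-dependent, pseudogenes included.

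Histone members and gene lists were chosen with earlier results of these data known. Named by rule were probe sets that passed, the brightest and lowest-p ones of each family, somatic variants, shared probe sets (here by counts and examples), the leading genes of each list (of the osteoblast, erythroid and endothelial lists by counts) and Col1a1, Ptprc, Mki67, Pcna, Slbp and Npat; H1f1, H1f2, H1f3, H2bc12, H2bc21, H2ac20, Cabin1 and the members at an unadjusted p under 0.05 were named after their values were seen. Where a gene of a list had several probe sets, the one with the highest mean stood for it.

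The fit was tested on simulated data of 25335 rows for AML against CML with 50 changed rows per size: limma recovered 34% of those changed by 1 on the log2 scale, 82% for a change of 2 and 96% for changes of 3 and of 4, and made 14 false calls. The alternatives were other scalings, level filters, all probe sets, 1 probe set per gene, trend and robust eBayes, array weights, a replicate block, leaving out each array and, added after the data were seen, identical probe sets counted once.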

Additional observations from a re-analysis of the deposited data

How the results depend on the processing

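The call counts were sensitive to the processing. Of all probe sets, 529 passed as reported, 189 after quantile normalization, 147 after cyclic loess, 1010 after median centring and 272 when probe sets without a symbol were tested too. With 1 array left out the count ran from 0 to 590, and it was 0 without AML 1 or AML 2, 110 without CML 3 and 324 without AML 3. Of the 2 replication-dependent calls 1, the H4 probe set, passed after quantile normalization and after cyclic loess. The count of replication-dependent calls was also 1 with all probe sets. It was 1 in the upper 70% and upper 50% of probe sets by level, where the dim H4 probe set was filtered out and not tested. With 1 probe set per gene, shared probe sets are left out, so neither call was tested. The count there was 0 of 29, with 5 at an unadjusted p under 0.05 in limma. With 1 array left out the count ran from 0 to 3. Counting identical probe sets once, a choice made after seeing the data, left it at 2. The variant count went from 0 to 1, H2az2, after median centring.

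Same-numbered arrays did not correlate as a set, with correlations of deviations of 0.23, -0.30 and -0.24. Of the other pairs, CML 2 with AML 3 was highest at 0.46, then CML 3 with AML 2 at 0.26, and CML 2 with AML 1 was lowest at -0.26. Each CML array thus had its highest value with a different AML array: CML 1 with AML 1, CML 2 with AML 3 and CML 3 with AML 2. The replicate block used the replicate numbers, and a fit with this other matching was not run. In log2 intensity over all probe sets CML 2 and AML 3 correlated at 0.935. The CML pairs were at 0.905 to 0.931, below that value, and the AML pairs at 0.955 to 0.966. With the replicate block 0 of all probe sets passed in limma, 4297 at an unadjusted p under 0.05, and 0 of the replication-dependent ones, 13 at that p.

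The median of all probe sets went from -0.11 to -0.030 after quantile normalization, 0.040 after median centring, -0.0081 after cyclic loess, -0.021 in the upper 70% and 0.17 in the upper 50% by level. The median of the replication-dependent probe sets ran from 0.10 to 0.33 with 1 array left out. The S phase median was 0.040 after cyclic loess, and the chaperone median 0.076 after quantile normalization and -0.040 after cyclic loess.

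Small changes turned sign. After quantile normalization and cyclic loess, an H3f3a probe set was at -0.13 and -0.28, the brightest H3 probe set at -0.0054 and -0.14, H2aj at -0.20 and -0.26, Pcna at -0.016 and -0.16, Slbp at -0.19 and -0.31, and the dimmer H1f10 probe set at 0.0024 and 0.029, with 0.023 after median centring. After cyclic loess H2bc12 was at -0.069, the brightest H2B probe set at -0.17 and H2bfm at 0.0072. H4c12 was at 0.044 after median centring. With array weights H2aj was at -0.028, Slbp at -0.0031 and the brighter H1f10 probe set at -0.017. With 1 array left out the H3f3a probe set ran from -0.042 to 0.16, the brightest H2B probe set from -0.054 to 0.11, H4c12 from -0.19 to 0.0018, H2bc21 from -0.00050 to 0.35, Slbp from -0.13 to 0.20, H2aj from -0.22 to 0.22 and the H1f10 probe sets from -0.23 to 0.015 and from -0.18 to 0.15. For all of these the cause was not tested.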

Other observations

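The replication-dependent probe sets were also described by gene cluster and by how many symbols they carry, as values with no test. The 45 probe sets of cluster 1 alone had a median log2 change of 0.22 and the 8 of cluster 2 alone one of 0.28. The 3 of cluster 3 had a median of -1.06, made of H2bu2, H2aw and the pseudogene H2bu1-ps at 0.19. The 38 probe sets with several symbols had a median of 0.26 and the 30 with 1 symbol one of 0.03. Every AML array lay above every CML array in 11 of the 38 (28.9%) and in 5 of the 30 (16.7%), beside 13.4% of all probe sets and 23.9% of those at or above the median level. Of the 38, 35 are different measurements, and 3 of the 11 repeat the values of another member. H2al1m, a germline H2A gene, had the highest change of the germline variants, 0.70, with overlapping groups (limma adjusted p = 0.296). It was at 4.61, 5.68 and 5.20 in CML and at 5.23, 6.16 and 6.21 in AML.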
